A study of Mus musculus with 41 samples.

Results

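Gene expression in epidermal stem cells at dawn (zeitgeber time 0, ZT0) was compared with late night (ZT20) in mice fed a high fat diet, over all genes on the array. The members were the 7 arrays whose titles name the high fat diet and time point T0 (3 arrays) or T20 (4 arrays), of 41 arrays in all. The donors were female C57B6/J mice of wild type genotype, fed freely from an age of 8 weeks for 7 weeks and aged 15 weeks at collection, and the tissue was epidermis. The groups used were high fat ZT0 (3 arrays), high fat ZT20 (4 arrays), control diet ZT0 (4 arrays) and control diet ZT20 (4 arrays), and the other high fat times served as a description of the day. The design planned 4 mice per time point and diet, and the mice killed on a given day all belonged to a single time point. Time point and collection day therefore coincide, and a difference between hours cannot be told apart from a difference between collection days. The labels number the replicates without saying that each is a separate mouse. The p-values rest on the spread within groups pooled over all 41 arrays, and this spread may be technical. The labels do not say how the cells were isolated or what the high fat diet contained.

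Zeitgeber time counts hours from lights on, and mice are active mainly in the dark. The circadian clock is a feedback loop in which CLOCK and BMAL1 (gene symbol Arntl) activate genes through E-box elements, and the PER and CRY proteins made from those genes repress them. In epidermal stem cells the clock is known to set daily windows for DNA replication and division, and the epidermis also responds to injury and microbes through NF-kB, a family of transcription factors that acts on inflammatory genes and on its own inhibitors.

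Values are log2 intensities after robust multi-array averaging (RMA), so a difference of 1 is a 2-fold change. The keratinocyte markers Krt5 and Krt14 lay between 12.58 and 12.70 and between 12.57 and 12.80 over the 7 arrays. The basal regulator Trp63 lay between 11.74 and 12.03 and the bulge keratin Krt15 between 11.88 and 12.11. The bulge stem cell markers Cd34 and Lgr5 lay between 4.51 and 5.38 and between 4.89 and 6.19. Whether a probe set was detected over background is not known from RMA values. The suprabasal keratins Krt1 (12.41 to 12.66) and Krt10 (11.84 to 12.03) also had high values. Other suprabasal markers lay lower, namely Ivl (7.54 to 8.29), Lor (6.00 to 6.96) and Flg (4.22 to 4.39). Correlations between arrays of a group were 0.991 to 0.995, against 0.986 to 0.990 between the groups. On the first principal component of the 7 arrays (45.0% of the variance) the ZT0 arrays lay at -15.6, -18.2 and -17.5 and the ZT20 arrays at 5.63, 14.5, 16.5 and 14.7, with ZT20 replicate 1 nearest to the ZT0 arrays.

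At ZT0, 678 genes were higher and 512 were lower than at ZT20, out of 17097 genes tested with limma (Benjamini-Hochberg adjusted p under 0.05). These 1190 genes are 6.96% of all genes tested, 3.97% higher and 2.99% lower. Changes were mostly small, with a median size of 0.45 among called genes on the log2 scale. A change of at least 1.5-fold was found for 172 higher and 194 lower genes, and of at least 2-fold for 21 higher and 47 lower genes. The median difference of all genes was 0.02. Over all genes, the ZT0 arrays lay entirely above the ZT20 arrays for 2184 genes (12.8%) and entirely below for 1442 (8.43%), and 1107 of the 1190 called genes were among them. The count depended on single arrays: it was 469 without ZT0 replicate 2, 562 without ZT0 replicate 3, 686 without ZT20 replicate 3 and 777 without ZT20 replicate 4. It was 788 when only the groups compared entered the fit, 1398 without the ZT8 arrays and 2216 with array weights. After centring each array on the median of the tested genes, 545 genes were higher and 612 lower, so the balance of directions turned.

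The 15 largest rises at ZT0 ranged from 2.21-fold to 3.52-fold and included a defensin, a follicle keratin, a lipoxygenase and several oxidoreductases. Defb6, a beta-defensin antimicrobial peptide, had log2 values of 10.97, 9.82 and 10.81 at ZT0, against 8.83, 8.71, 8.88 and 8.59 at ZT20. All ZT0 arrays lay above all ZT20 arrays, and the rise was 1.78 ± 0.32 (SE), or 3.44-fold (adjusted p = 0.00123). Cd200, a surface glycoprotein that restrains myeloid cells and is also found on hair follicle bulge cells, had values of 9.23, 8.19 and 9.33 at ZT0, against 7.04, 6.94, 7.14 and 7.30 at ZT20. Its rise was 1.81 ± 0.33 (adjusted p = 0.00124). Nebl, an actin-binding protein of the nebulin family, had 9.59, 8.38 and 9.26 at ZT0, against 7.59, 7.18, 6.87 and 7.41 at ZT20, a rise of 1.81 ± 0.38. Krt79, a keratin of the upper hair follicle, had 11.86, 10.83 and 11.55 at ZT0, against 10.15, 10.07, 9.99 and 9.78 at ZT20, a rise of 1.41 ± 0.24. For these 4 genes ZT0 replicate 2 was the lowest ZT0 array, and it still lay above every ZT20 array.

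Alox12e, an epidermal lipoxygenase, was more even among ZT0 arrays, with 10.72, 10.51 and 10.73 at ZT0, against 9.83, 9.10, 9.25 and 9.27 at ZT20 (rise 1.29 ± 0.22, adjusted p = 0.000853). Among metabolic enzymes, the hydroxysteroid dehydrogenase Akr1c18 rose by 1.65, the esterase Aadac by 1.59 and the aldehyde dehydrogenase Aldh1a7 by 1.32. The cytochrome P450 Cyp1b1, a target of the aryl hydrocarbon receptor, rose by 1.59 on its highest probe set and had differences of 0.04 and 0.24 on its other probe sets, neither past the threshold. The metalloproteinase inhibitor Timp2 rose by 1.24, the ubiquitin ligase Pdzrn3 by 1.24, the calmodulin-like Calml3 by 1.20, the arrestin-domain gene Arrdc3 by 1.18 and Nrep by 1.22. The amino acid transporter Slc43a2 rose by 1.15, with 1.93 and -0.10 on its other probe sets. 3 of these 15 rises lost their call without a single array: Akr1c18 without ZT0 replicate 1, ZT0 replicate 3 or ZT20 replicate 2 (adjusted p up to 0.117), Aadac without ZT0 replicate 3 (0.0517) and Pdzrn3 without ZT0 replicate 3 (0.0582). Over the high fat day, 10 of the 15 had their highest mean at ZT8, a group of 2 arrays, and 11 had their lowest at ZT20. The 2 ZT8 arrays lay far apart for these 10 genes, with SDs from 0.83 (Alox12e) to 1.42 (Cd200 and Pdzrn3). All 15 were chosen for their rise from ZT20 to ZT0, which favours a low ZT20 mean.

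**Figure D1:**
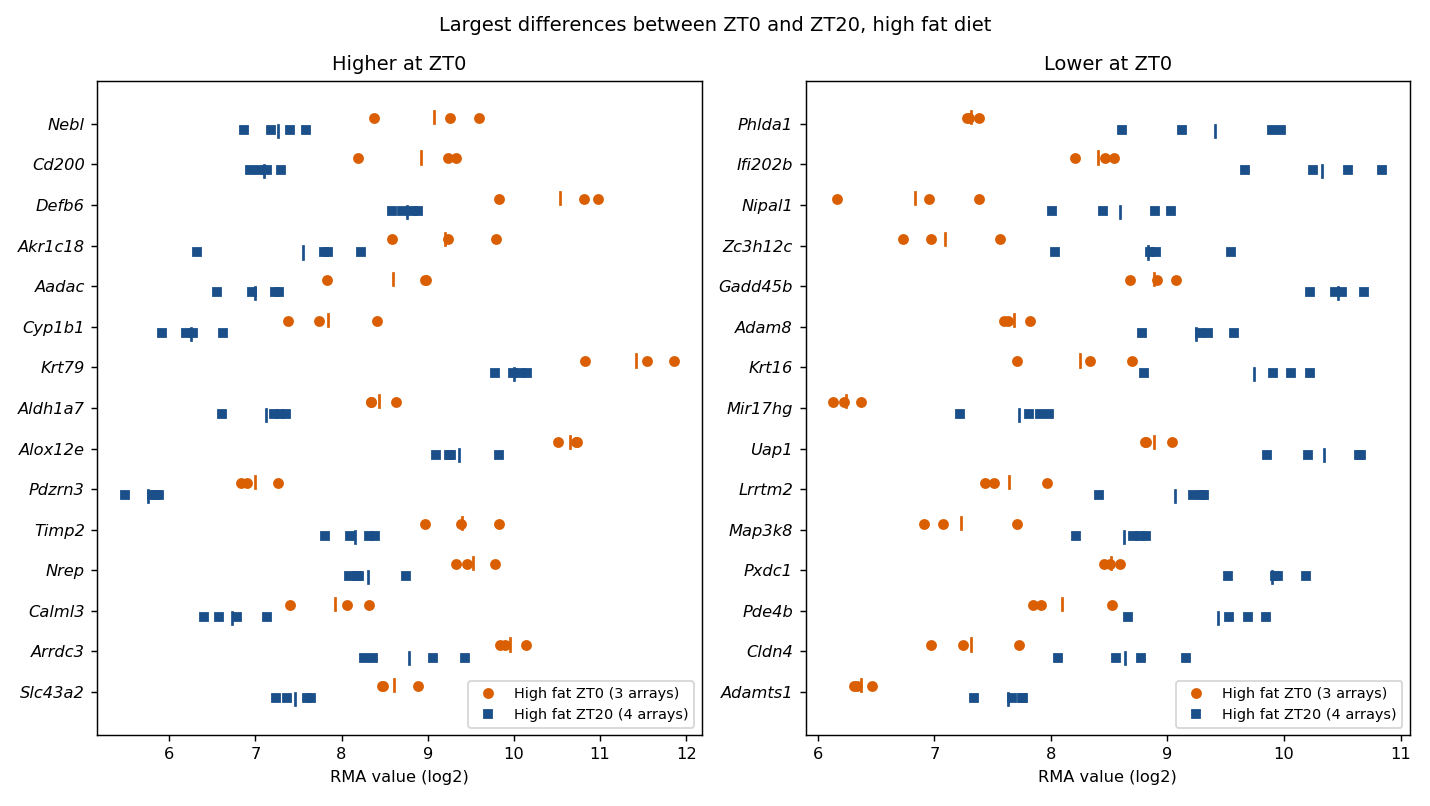
RMA values (log2) of the 15 largest rises (left) and 15 largest falls (right) in each array, with high fat ZT0 in orange circles (3 arrays) above high fat ZT20 in blue squares (4 arrays), and short lines for group means. The groups do not overlap for any of the 30 genes, which were chosen from these same arrays as the largest called differences. Over all genes, 12.8% lay entirely higher at ZT0 and 8.43% entirely lower. ZT0 replicate 2 is the lowest ZT0 array for Nebl, Cd200 and Defb6.

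The 15 largest falls at ZT0 ranged from 2.39-fold to 4.25-fold and included stress-induced genes, a stress keratin, a kinase and metalloproteases. Phlda1, which is induced by ERK signalling, had 7.29, 7.28 and 7.38 at ZT0, against 8.61, 9.13, 9.98 and 9.90 at ZT20, so that the ZT0 arrays lay close together and the ZT20 arrays far apart. Its fall was -2.09 ± 0.39, or 4.25-fold (adjusted p = 0.00147). Gadd45b, a stress-induced gene and NF-kB target, had the smallest adjusted p of the 15 falls, with 8.91, 9.07 and 8.68 at ZT0, against 10.22, 10.68, 10.50 and 10.44 at ZT20 (change -1.57 ± 0.14, adjusted p = 1.89e-08). Map3k8, a kinase upstream of ERK, had 7.71, 6.91 and 7.08 at ZT0, against 8.71, 8.21, 8.81 and 8.76 at ZT20, a change of -1.39 ± 0.19. The interferon-inducible Ifi202b changed by -1.92, the magnesium transporter Nipal1 by -1.76, the zinc finger protein Zc3h12c by -1.75 and the metalloprotease Adam8 by -1.56. The tight junction gene Cldn4 changed by -1.32, the secreted protease Adamts1 by -1.26, the sugar nucleotide enzyme Uap1 by -1.45, Lrrtm2 by -1.42 and Pxdc1 by -1.38. The cAMP phosphodiesterase Pde4b changed by -1.34, with -1.25 and 0.14 on its other probe sets. Zc3h12c had -0.25 on its other probe set, Uap1 had -0.25 and -0.53 and Nipal1 -0.95, none past the threshold.

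Krt16, a keratin of stressed and hyperproliferating epidermis, had 8.69, 7.71 and 8.34 at ZT0, against 8.80, 9.90, 10.22 and 10.06 at ZT20, with ZT20 replicate 1 close to the highest ZT0 array. Its change was -1.50 ± 0.40 (adjusted p = 0.0204), and the call was lost on leaving out ZT0 replicate 2 or 3 or ZT20 replicate 3 or 4 (adjusted p up to 0.138). Nipal1 lost its call without ZT0 replicate 2 or ZT20 replicate 3 (up to 0.127), and Zc3h12c without ZT0 replicate 2, ZT0 replicate 3 or ZT20 replicate 3 (up to 0.0793). Over the high fat day, 11 of the 15 falling genes had their highest mean at ZT20. They were chosen for their fall from ZT20 to ZT0, which favours a high ZT20 mean, so this count describes the choice as well.

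Mir17hg, the host transcript of a microRNA cluster that promotes cell proliferation, had 6.22, 6.13 and 6.37 at ZT0, against 7.22, 7.99, 7.81 and 7.90 at ZT20. The change was -1.49 ± 0.23 (adjusted p = 0.00026), with every ZT0 array below every ZT20 array. The mature miRNAs were not measured here. They are shown because they are what the host transcript yields, from RefSeq on chromosome 14 (GRCm38.p6), with the seed (bases 2 to 8) in capitals. The first pair share a seed, as do the second pair.
mmu-miR-17-5p: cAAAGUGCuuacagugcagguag
mmu-miR-20a-5p: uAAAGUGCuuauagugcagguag
mmu-miR-19a-3p: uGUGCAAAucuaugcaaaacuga
mmu-miR-19b-3p: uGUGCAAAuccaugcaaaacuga
mmu-miR-18a-5p: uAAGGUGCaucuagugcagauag
mmu-miR-92a-3p: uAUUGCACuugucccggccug

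The clock genes that changed were all lower at ZT0. Of 17 clock genes measured, 5 fell and none rose, beside 2.99% lower and 3.97% higher among all genes, and 14 had a negative difference with a median of -0.23. The repressor Per2 had 6.46, 6.71 and 6.53 at ZT0, against 7.60, 7.70, 7.46 and 7.29 at ZT20, a change of -0.95 ± 0.14 (adjusted p = 0.000189) and -1.87 on its other probe set. The repressor Cry1 had 6.01, 6.40 and 6.24 at ZT0, against 7.23, 6.85, 7.36 and 7.57 at ZT20, a change of -1.03 ± 0.19 (adjusted p = 0.00125). Neither gene's groups overlap. Tef, a D-box binding output factor, had 7.92, 8.36 and 8.16 at ZT0, against 9.08, 9.02, 8.90 and 8.80 at ZT20 (change -0.80 ± 0.12). Bhlhe40, a repressor that binds E-boxes, had 10.12, 9.92 and 9.95 at ZT0, against 10.74, 10.76, 10.96 and 10.83 at ZT20 (change -0.82 ± 0.19). Rora, a nuclear receptor that activates Arntl, changed by -0.29 ± 0.08 (adjusted p = 0.0217), and its call was lost on leaving out any ZT0 array, ZT20 replicate 3 or ZT20 replicate 4 (adjusted p up to 0.0963).

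The other clock genes did not pass the threshold. Arntl differed by -0.53 ± 0.31 (adjusted p = 0.313) although its arrays did not overlap, with 8.67, 8.44 and 8.59 at ZT0, against 9.13, 8.80, 9.56 and 8.87 at ZT20. The differences were -0.38 for Per3, 0.14 for Per1, -0.23 for Cry2, -0.21 for Dbp, -0.07 for Hlf, -0.04 for Ciart and 0.19 for Bhlhe41. Clock (-0.04), Npas2 (0.04) and Nr1d2 (-0.09) had differences near 0 that changed sign between probe sets or when an array was left out. Nfil3, a repressor that competes for D-boxes, differed by -0.51 ± 0.20 (adjusted p = 0.11), and its arrays did not overlap either.

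**Figure D2:**
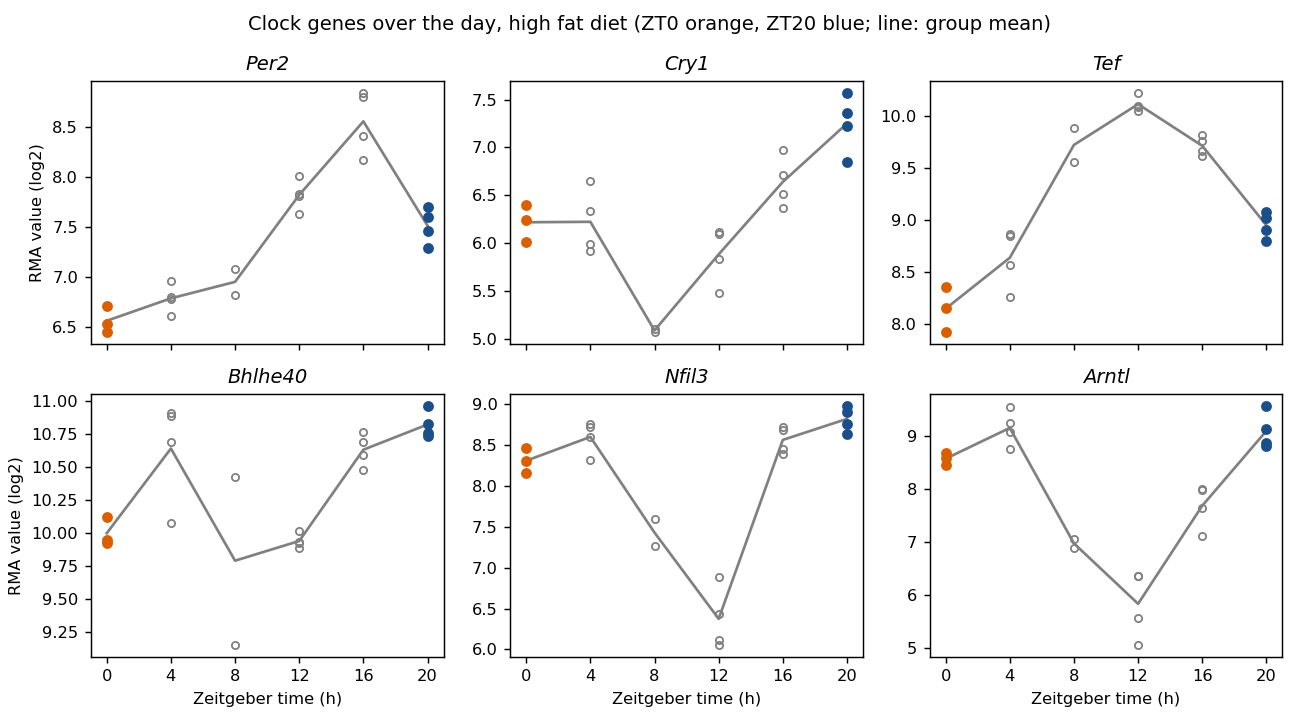
RMA values (log2) of 6 clock genes in every high fat array by zeitgeber time (hours), with ZT0 in orange, ZT20 in blue, other times as open circles and a line through the group means. For all 6 genes every ZT0 array lies below every ZT20 array, but Nfil3 and Arntl did not pass the threshold. ZT8 holds 2 arrays.

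Promoters of Cry1 and Tef are shown because both genes fell and their promoters hold the letters of the E-box, the element CLOCK and BMAL1 bind. A match describes letters and does not show binding. The palindrome CACGTG was searched on both strands in the 250 bases before each gene's start in RefSeq (GRCm38.p6). It was found in 3 of 5 clock repressor promoters, 2 of 5 output factor promoters and 0 of 5 promoters of activators and nuclear receptors, against 7.58% of the 13605 tested genes with a promoter. The repressor and output lists hold known E-box targets. Among all genes lower at ZT0 the share was 9.51%, and among those higher 6.64%. Capitals mark the match, and each run ends at the base before the start.
Cry1, chr10:85185055-85185204, minus strand: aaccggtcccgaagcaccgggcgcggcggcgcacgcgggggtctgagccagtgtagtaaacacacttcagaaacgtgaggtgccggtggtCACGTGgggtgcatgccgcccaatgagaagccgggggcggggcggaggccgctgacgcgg
Tef, chr15:81802523-81802672, plus strand: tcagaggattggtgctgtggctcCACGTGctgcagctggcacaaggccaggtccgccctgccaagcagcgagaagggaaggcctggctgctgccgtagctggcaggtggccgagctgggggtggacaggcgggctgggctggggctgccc

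The gene lists of this report were chosen with earlier results of these data known. Their shares beside all genes are therefore descriptions and not independent tests. Of 23 replication licensing and S phase genes measured, 12 fell, none rose and 11 did not pass, beside 2.99% lower among all genes. All 23 differences were negative, with a median of -0.45. Arrays did not overlap for 18 of them, all lower at ZT0, beside 8.43% of all genes. Mcm5, a subunit of the replicative helicase, had 8.51, 8.59 and 8.92 at ZT0, against 9.87, 10.04, 9.99 and 9.48 at ZT20, a change of -1.18 ± 0.25 (adjusted p = 0.00486), with 0.08 on its other probe set. Cdt1, which loads the helicase, changed by -1.03 ± 0.20, with 0.01 on another probe set. Gins2, a helicase cofactor, had 7.43, 7.32 and 7.67 at ZT0, against 8.38, 8.62, 8.52 and 8.64 at ZT20 (change -1.07 ± 0.19, adjusted p = 0.00129). Pola1, a DNA polymerase subunit, changed by -0.65, E2f1, which drives S phase genes, by -0.42, and the polymerase clamp Pcna by -0.42. The number that fell was 5 without ZT0 replicate 2 and 7 without ZT20 replicate 3, and Pcna lost its call without ZT0 replicate 2 (adjusted p = 0.0713). In the high fat day the list mean was lowest at ZT0 (7.47 ± 0.10, SD, n = 3) and highest at ZT12 (8.22 ± 0.10, n = 4), with 7.96 ± 0.04 (n = 4) at ZT20.

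Of 29 mitosis genes measured, 6 rose, none fell and 23 did not pass the threshold, beside 3.97% higher and 2.99% lower among all genes. The median difference was 0.33, with 26 positive and 3 negative. Nek2, a centrosome kinase, had 6.33, 6.34 and 6.44 at ZT0, against 5.79, 5.86, 5.58 and 5.68 at ZT20, a rise of 0.64 ± 0.10 (adjusted p = 0.00026), with -0.03 on another probe set. Ttk, a spindle checkpoint kinase, had 9.17, 8.98 and 9.02 at ZT0, against 8.42, 7.91, 8.24 and 8.50 at ZT20, a rise of 0.78 ± 0.17. Cdc20, which activates the anaphase-promoting complex, had 8.68, 8.86 and 8.81 at ZT0, against 8.27, 7.87, 8.16 and 8.19 at ZT20 (rise 0.66 ± 0.18, adjusted p = 0.0238). Ube2c, a ubiquitin-conjugating enzyme of that complex, rose by 0.68 with overlapping arrays, since ZT20 replicate 1 (9.23) lay above the lowest ZT0 array (9.22). The kinesin Cenpe rose by 0.50 and the survivin gene Birc5 by 0.59.

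The mitosis calls rested on few arrays. There were 3 without ZT0 replicate 2, 2 without ZT0 replicate 3, 3 when only the arrays of the diet entered the fit and 11 with array weights. Nek2 and Ttk kept their calls without any single array. The highest adjusted p without an array was 0.136 for Ube2c, 0.108 for Cenpe, 0.0992 for Cdc20 and 0.0908 for Birc5, and each of these lost its call without ZT0 replicate 2 and without ZT0 replicate 3. The list mean was highest at ZT0 (8.07 ± 0.07, SD, n = 3), with 7.74 ± 0.16 at ZT20 and 6.86 ± 0.16 at ZT8 (n = 2).

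**Figure D3:**
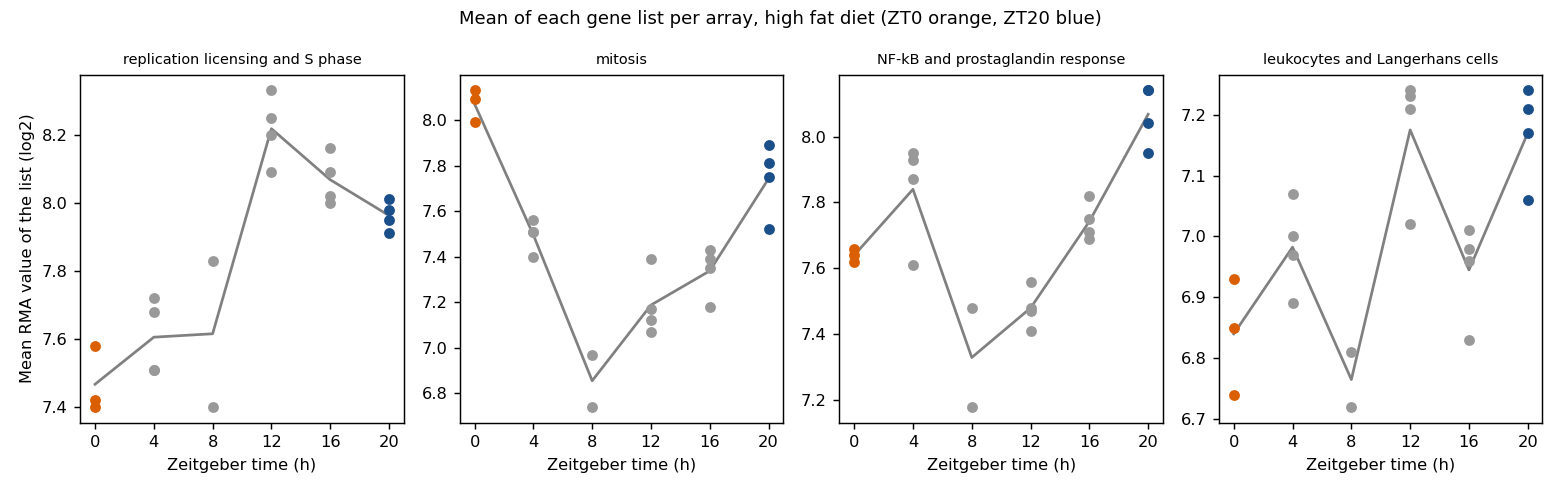
Mean RMA value (log2) of 4 gene lists in every high fat array by zeitgeber time (hours), with ZT0 in orange, ZT20 in blue and a line through the group means. The ZT0 arrays lie below the ZT20 arrays for S phase, NF-kB and leukocyte genes and above them for mitosis genes.

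The cell cycle element CHR (TTTGAA), through which genes of late cell cycle are repressed in resting cells, was searched on both strands in the same windows. It was held by 7 of 24 mitosis promoters (29.2%), against 11.8% of tested genes. The list was made of late cell cycle genes, some of them known to carry the element. Among all genes higher at ZT0 the share was 11.6%, and among those lower 10.7%. Promoters of Cdc20 and Ube2c are shown because both rose and hold it close to the start, in capitals.
Cdc20, chr4:118437344-118437443, minus strand: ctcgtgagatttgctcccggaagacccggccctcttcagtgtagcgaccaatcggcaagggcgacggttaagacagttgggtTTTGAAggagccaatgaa
Ube2c, chr2:164769829-164769928, plus strand: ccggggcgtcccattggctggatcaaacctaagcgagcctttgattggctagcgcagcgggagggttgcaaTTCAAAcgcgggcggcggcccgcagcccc

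Of 18 NF-kB and prostaglandin response genes measured, 10 fell, none rose and 8 did not pass, beside 2.99% lower among all genes. This list too was chosen with earlier results of these data known. The median difference was -0.36, with 16 negative and 2 positive. Nfkbia, the inhibitor that holds NF-kB in the cytoplasm, had 11.57, 11.51 and 11.60 at ZT0, against 12.16, 12.26, 12.25 and 12.18 at ZT20. Values within each time lay close together, and the change was -0.66 ± 0.07 (adjusted p = 5.82e-06). Tnfaip3, a ubiquitin-editing inhibitor of the pathway, had 10.42, 10.33 and 10.37 at ZT0, against 11.38, 11.45, 11.67 and 11.65 at ZT20 (change -1.16 ± 0.18, adjusted p = 0.000224). Ptges, the prostaglandin E synthase, changed by -0.52, and the nuclear regulator Nfkbiz by -0.47, with 0.28 on another probe set. Smaller changes were measured for the cytokine Il1a (-0.22) and the neutrophil chemokine Cxcl2 (-0.25), which had 4.34, 4.26 and 4.22 at ZT0, against 4.58, 4.58, 4.47 and 4.46 at ZT20.

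The number of NF-kB genes that fell was 3 without ZT0 replicate 2, 5 without ZT0 replicate 3, 6 without ZT20 replicate 3 or ZT20 replicate 4 and 5 when only the groups compared entered the fit. Nfkbia, Tnfaip3 and Il1a kept their calls without any single array. Without ZT0 replicate 2 the adjusted p was above the threshold for Cxcl2, Ptges and Nfkbiz, and without ZT0 replicate 3 for Cxcl2 and Nfkbiz, with highest values of 0.0697, 0.0715 and 0.0885.

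Promoters of Nfkbia, Tnfaip3 and Cxcl2 are shown because these genes fell and hold a match to the consensus NF-kB site, searched on both strands. It was found in 7 of 15 promoters of the list (46.7%), against 188 of 13605 tested genes (1.38%). The list was made of known targets of the pathway. Among all genes lower at ZT0 the share was 2.20%, and among those higher 1.11%. Capitals mark the matches, which lie on the opposite strand in Nfkbia and Tnfaip3.
Nfkbia, chr12:55492648-55492847, minus strand: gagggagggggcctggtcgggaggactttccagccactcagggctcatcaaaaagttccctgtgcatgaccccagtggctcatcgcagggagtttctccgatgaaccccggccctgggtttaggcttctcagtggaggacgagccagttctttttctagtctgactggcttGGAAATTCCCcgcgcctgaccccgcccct
Tnfaip3, chr10:19015411-19015560, minus strand: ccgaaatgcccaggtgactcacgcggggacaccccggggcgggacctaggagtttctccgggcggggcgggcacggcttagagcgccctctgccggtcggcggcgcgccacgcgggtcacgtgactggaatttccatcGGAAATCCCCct
Cxcl2, chr5:90903749-90903898, plus strand: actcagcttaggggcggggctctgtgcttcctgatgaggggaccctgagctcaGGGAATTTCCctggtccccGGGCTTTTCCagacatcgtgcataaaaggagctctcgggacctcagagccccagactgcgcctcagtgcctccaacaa

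Among all genes 2.99% were lower and 3.97% higher. Of 20 immediate early genes, 4 fell and none rose, with a median of -0.13. Ier3 changed by -0.71, the transcription factors Klf2 by -0.72, Maff by -1.07 and Fosl1, an AP-1 subunit, by -0.93. The count was 2 without ZT0 replicate 3, ZT20 replicate 3 or ZT20 replicate 4, and the highest adjusted p was 0.0579 for Klf2, 0.0972 for Maff and 0.111 for Fosl1. Of 15 EGF receptor ligands and feedback genes, 3 fell, namely Phlda1, the ligand Tgfa (-0.81) and the ligand Hbegf (-0.65), and the count was 1 without ZT0 replicate 2 or ZT20 replicate 3. Without an array the adjusted p was up to 0.0611 for Tgfa and 0.101 for Hbegf. Of 10 interferon response genes, 2 fell, and the other 8 differences were positive without passing the threshold, for a list median of 0.06. Irf1 had 8.95, 9.16 and 9.19 at ZT0, against 10.28, 10.16, 10.16 and 10.16 at ZT20 (change -1.09 ± 0.18, adjusted p = 0.000478), and Irf7 changed by -0.29, a call lost whichever of the 7 arrays was left out (adjusted p up to 0.124).

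Of 14 markers of leukocytes and Langerhans cells measured, 5 fell, none rose and 9 did not pass, beside 2.99% lower among all genes. All 14 differences were negative, with a median of -0.28. The list mean per array was 6.74 to 6.93 at ZT0, against 7.06 to 7.24 at ZT20. Cd52 changed by -0.58, the T cell gene Cd3e by -0.68, the class II genes H2-Aa by -0.39 and H2-Ab1 by -0.73, and Cd86 by -0.21. The count was 3, 1 and 2 without ZT0 replicates 1, 2 and 3, and 2, 2 and 3 without ZT20 replicates 1, 2 and 3. Without an array the adjusted p was up to 0.181 for Cd3e, 0.0986 for H2-Aa, 0.217 for H2-Ab1 and 0.153 for Cd86. The pan-leukocyte marker Ptprc lay between 4.21 and 4.71 over the 7 arrays and the Langerhans marker Cd207 between 5.56 and 6.05. In bulk samples, fewer cells of a type and less RNA per cell cannot be told apart. The list means of basal keratinocyte genes were also apart, at 11.29 to 11.41 at ZT0, against 11.45 to 11.57 at ZT20. The part of either cell type in the S phase, NF-kB and immediate early results was not tested.

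**Figure D4:**
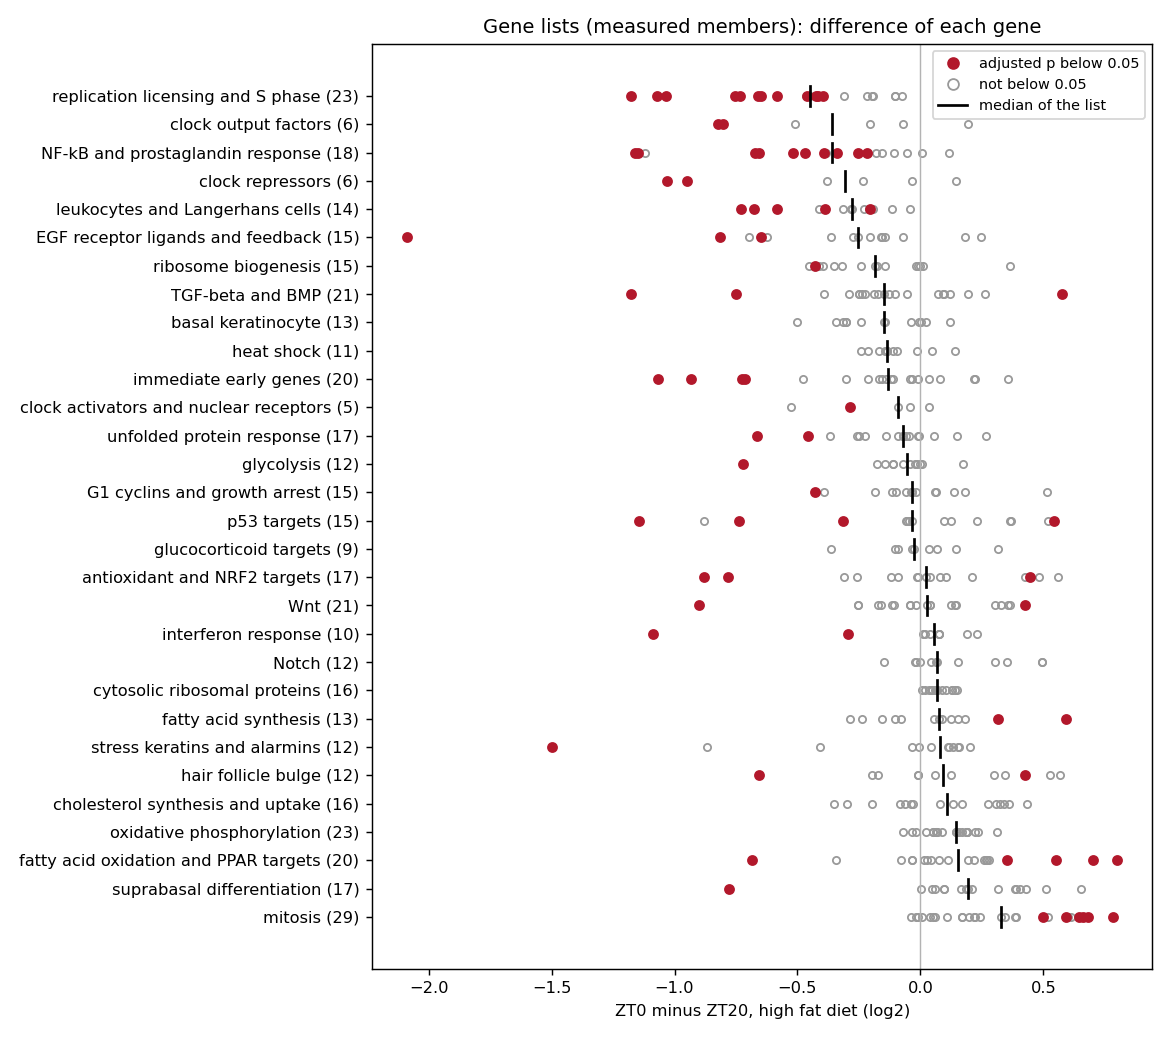
Difference of each measured gene between high fat ZT0 and ZT20 (log2), by gene list with the number measured in brackets, with filled points for adjusted p below 0.05 and black bars for list medians. Filled points lie only on the left for S phase and NF-kB genes and only on the right for mitosis genes.

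Of 20 fatty acid oxidation and PPAR target genes, 4 rose and 1 fell, with a median of 0.15, beside 3.97% higher and 2.99% lower among all genes. The lipid droplet gene Plin2 rose by 0.55, the thioesterases Acot1 by 0.80 and Acot2 by 0.70, and the oxidation enzyme Hadhb by 0.35. The lipase inhibitor Angptl4 fell by 0.68, with 0.02 on its other probe set. Of 13 fatty acid synthesis genes, malic enzyme Me1 (0.59) and the desaturase Scd1 (0.32) rose. By limma none of 23 oxidative phosphorylation or 16 cholesterol genes passed, and at an unadjusted p under 0.05 there were 4 and 3. Of 12 glycolysis genes the hexokinase Hk2 fell by 0.72. Hadhb, Me1, Acot2 and Scd1 lost their calls without at least 1 array, with adjusted p up to 0.124, 0.0733, 0.164 and 0.118.

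The Wnt, ribosome biogenesis and G1 cyclin and arrest lists held calls at a share near the 6.96% called among all genes. The other lists given next, such as p53 targets and antioxidant genes, held a higher share. All members are given as single genes and not as results about the lists. The BMP ligand Bmp2 had 8.60, 8.91 and 8.84 at ZT0, against 9.68, 9.92, 9.92 and 10.33 at ZT20 (change -1.18 ± 0.21, adjusted p = 0.00129). The activin antagonist Fst rose by 0.57 and Tgfb1 changed by -0.75, in a list of 21 genes. Of 21 Wnt genes, the ligand Wnt5a changed by -0.90 and Dkk3 rose by 0.43. Of 15 p53 targets, Sesn1 rose by 0.54 and Sesn2 (-0.74), Plk2 (-1.15) and Aen (-0.31) fell. Of 17 antioxidant genes, catalase Cat rose by 0.45 and Hmox1 (-0.88) and Txnrd1 (-0.78) fell. Of 17 unfolded protein response genes Sdf2l1 (-0.67) and Atf4 (-0.46) fell, and of 15 ribosome biogenesis genes Bop1 (-0.43). Of 15 G1 cyclin and arrest genes, Ccnd3 (-0.43) fell, with 0.18 on another probe set. Tgfb1, Wnt5a, Dkk3, Plk2, Aen, Hmox1, Txnrd1, Sdf2l1, Atf4 and Ccnd3 each lost their call without at least 1 array, with adjusted p up to 0.126, 0.0836, 0.213, 0.0726, 0.147, 0.136, 0.15, 0.122, 0.122 and 0.114.

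By limma none of 13 basal keratinocyte genes passed (2 lower at an unadjusted p under 0.05), with a median of -0.15. For 7 of the 13 the ZT0 arrays lay entirely below the ZT20 arrays, beside 8.43% of all genes. Of 17 suprabasal genes, 16 differences were positive with a median of 0.19, and the single call was the transglutaminase Tgm3, which fell by 0.78 (adjusted p 0.0893 without ZT0 replicate 3). Of 12 bulge genes, the transcription factor Nfatc1 fell, with a change of -0.66 (0.0596 without ZT0 replicate 2), and Dkk3, already given among the Wnt genes, rose. The few calls in these lists stand beside 2.99% lower and 3.97% higher among all genes, and are given as single genes. Single calls were also made for the endothelial receptor Tek (0.24), the hair gene Tchh (-0.60) and the red cell gene Slc4a1 (0.13), each lost without at least 1 array (adjusted p up to 0.107, 0.148 and 0.144). Tek and Tchh were dim, with means of 5.21 and 5.03 at ZT0, against 4.97 and 5.62 at ZT20. The filter on low values removed both. None of the measured markers of fibroblasts (11), melanocytes (8), muscle (8), adipocytes (5), Merkel cells and nerve (6) or sebaceous gland (4) passed by limma. At an unadjusted p under 0.05 there was 1 in each of these lists except Merkel cells and nerve, which had 0.

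The same hours on the control diet gave 2464 called genes (14.4%), 1331 higher (7.78%) and 1133 lower (6.63%). Both diets called 490 genes, 41.2% of the high fat calls and 19.9% of the control calls, and 484 of them had the same sign. The control groups hold 4 arrays each, against 3 at high fat ZT0. All 15 of the largest falls on the high fat diet were also called on the control diet, and 10 of the 15 largest rises. In size, 14 of the 15 rises were larger on the high fat diet and 13 of the 15 falls were larger on the control diet, but for none of the 30 did the test of the difference between diets pass the threshold. These genes were chosen as the largest on the high fat diet, which favours a larger size there.

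The test of the difference between diets called 88 genes (0.515%), 38 more positive and 50 more negative on the high fat diet, and 31 of the 1190 high fat calls (2.61%) were among them. In 65 of the 88 the sign of the ZT0 minus ZT20 difference was opposite between the diets, which includes differences near 0 in genes chosen for differing, and 6 were called with opposite signs on both diets. The chemokine receptor-like gene Ccrl2 differed by -0.26 on the high fat diet and by -2.21 on the control diet (difference 1.96, adjusted p = 0.000843). The zinc finger gene Zfp740 rose by 0.64 on the high fat diet, with -0.05 on the control diet (difference 0.69, adjusted p = 0.00933). Rusf1 had -0.82 and 0.20 (difference -1.01), and Fam221a 0.43 and -0.24 (difference 0.67). Ankrd52 changed by -0.86 on the high fat diet and 0.92 on the control diet (difference -1.78, adjusted p = 0.0115). Its high fat call was lost on leaving out 5 of the 7 high fat arrays in turn (adjusted p up to 0.0886), as was that of Mtm1 (0.232), the exceptions being ZT20 replicates 1 and 4 for Ankrd52 and ZT0 replicate 2 and ZT20 replicate 4 for Mtm1. The long non-coding RNA Neat1 had 0.24 and 1.55 (difference -1.31), Leng8 -0.17 and 0.56 (difference -0.73), and Apbb3 -0.31 and 1.00 (difference -1.31). Mtm1, a lipid phosphatase, had 0.39 and -0.45 (difference 0.84), and the transporter Abcc5 -0.23 and 1.01 (difference -1.24). Among list genes, Nfil3 had -0.51 and -1.83 (difference 1.31, adjusted p = 0.0203), Tnfaip3 -1.16 and -2.17 (difference 1.01, adjusted p = 0.0493) and Bop1 -0.43 and 0.23 (difference -0.66, adjusted p = 0.0218). The count fell to 13 without high fat ZT0 replicate 3 and was 33 without high fat ZT0 replicate 2. It was 34 without control ZT20 replicate 4, 36 without high fat ZT20 replicate 2, 44 without high fat ZT20 replicate 1 or control ZT20 replicate 1, and 54 and 58 without control ZT0 replicate 4 and high fat ZT20 replicate 3. The design text does not say whether the diets were collected on a shared day.

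**Figure D5:**
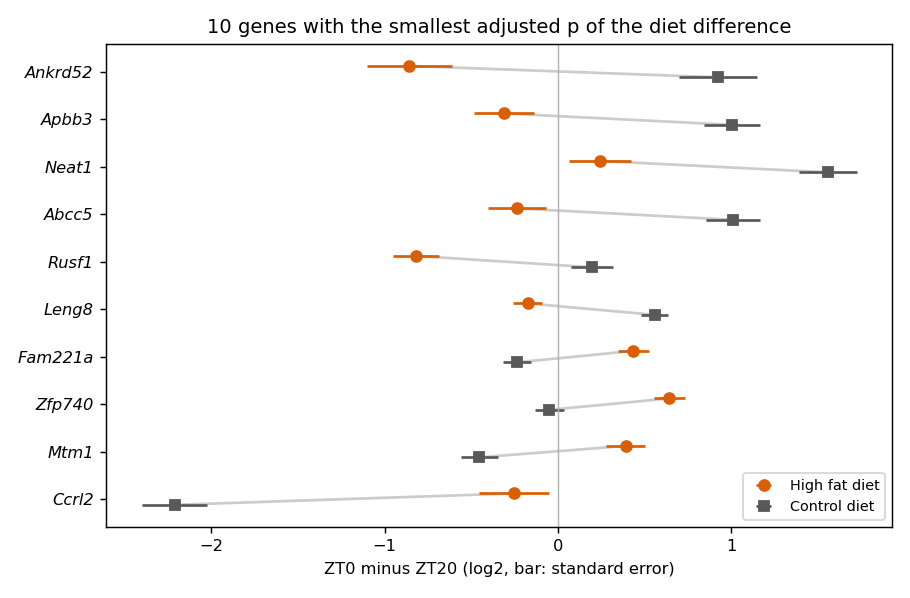
ZT0 minus ZT20 difference (log2, bars are standard errors) on the high fat diet (orange circles) and the control diet (grey squares) for the 10 genes with the smallest adjusted p of the difference between diets. In 8 of the 10 the signs are opposite.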

How the data were processed

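RNA from epidermal stem cells was amplified, biotinylated and hybridised to oligonucleotide arrays, and the authors deposited 1 log2 value per probe set and array, made with RMA per the submitters' processing notes. Scanner files and detection calls were not used here. Of 45141 probe sets (104 controls), 28898 named a single gene, 551 several and 15692 none. Each of 17097 genes stood by its probe set of highest mean over the 41 arrays.

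A group-means model over all 41 arrays in 12 groups was fitted with limma 3.58.1 (R 4.3.3, lmFit and eBayes). Contrasts were ZT0 minus ZT20 on the high fat diet, the same on the control diet, and the difference between them, each adjusted by Benjamini-Hochberg over all genes at 0.05. The fit was tested on simulated data. The number of arrays limits the precision. Alternatives covered probe set choice, a filter on low values, centring, array weights, the arrays fitted, a replicate block and leaving out each array.

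The members and gene lists were chosen with earlier results of these data known. Named genes are the 15 largest rises and falls, the 10 smallest adjusted p of the diet difference, all measured clock genes, up to 6 members of each list by smallest adjusted p, of which the called ones are described, and defining markers; predicted genes were passed over. The labels do not say whether replicate numbers pair the samples. Between high fat ZT0 and ZT20, same-numbered deviations from the group means correlated at -0.016, -0.076 and 0.041. With groups of 3 and 4 arrays these values cannot settle it.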

Additional observations from a re-analysis of the deposited data

Results flagged for a closer look

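In 6 of 117 groups of 4 high fat ZT20 arrays examined, a single array lay apart from the other 3 by Dixon's criterion, which chance meets in about 1 of 20 groups. ZT20 replicate 1 lay apart for Lrrtm2 (8.41), Pcna (10.47) and Irf1 (10.28). ZT20 replicate 3 lay apart for Rusf1 (8.19) and Cd52 (8.17), and ZT20 replicate 2 for Hadhb (9.40).

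The difference between ZT0 and ZT20 differed between the high fat and the control diet, by the interaction term, for 13 named genes. It was more positive on the high fat diet for Ccrl2 (1.96), Nfil3 (1.31), Tnfaip3 (1.01), Mtm1 (0.84), Zfp740 (0.69) and Fam221a (0.67). It was more negative for Ankrd52 (-1.78), Apbb3 (-1.31), Neat1 (-1.31), Abcc5 (-1.24), Rusf1 (-1.01), Leng8 (-0.73) and Bop1 (-0.66).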

How the results depend on the processing

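Other probe sets were left out of the next counts. Of 100 named genes called between high fat ZT0 and ZT20, 52 kept their call under every other alternative applied to the gene. The call was lost under at least 1 for 48, and none of the 100 reversed. Some of the 52 did not pass or turned sign on another probe set, among them Cyp1b1, Uap1, Mcm5, Cdt1, Nek2 and Angptl4. The calls lost numbered 33 without ZT0 replicate 2, 35 without ZT0 replicate 3, 27 with only the groups compared, 20 with only the arrays of the diet and 14 with the replicate block. The count of 1190 genes was 2886 with each probe set on its own, 2216 with array weights, 788 with only the groups compared and 469 to 1169 leaving out an array. Genes higher numbered 1467 with each probe set on its own, 1340 with array weights, 445 with only the arrays of the diet and 267 to 683 leaving out an array. Genes lower numbered 1419 with each probe set on its own, 876 with array weights, 335 with only the groups compared and 202 to 486 leaving out an array. Control diet calls were 6661 with each probe set on its own. The difference between diets had 312 with each probe set on its own, 259 with array weights, 34 with only the groups compared and 13 to 123 leaving out an array. With the replicate block the high fat count was 852 and the difference between diets 70, though whether the numbers pair the samples is not known. The share of calls that were higher was 57.0%, and 47.1% after centring on the tested genes. On other probe sets the sign turned for Slc43a2 (-0.10), Pde4b (0.14), Abcc5 (0.14, 0.04 and 0.05), Clock (0.20, 0.04 and 0.23), Nr1d2 (0.17), Bhlhe41 (-0.01), Cdt1 (0.01), Mcm5 (0.08), Nek2 (-0.03), Nfkbiz (0.28), Angptl4 (0.02), Cd86 (0.08), Ccnd3 (0.18) and Slc4a1 (-0.08). Averaging probe sets turned Clock (0.11) and Nr1d2 (0.04). Leaving out an array gave -0.11 to 0.02 for Clock and -0.01 to 0.06 for Npas2. The cause of these changes was not tested. Signal over background is unknown, which limits what dim probe sets can show. The filter on low values removed the called genes Mtm1, Il1a, Cxcl2, Tek and Tchh, so their calls were not tested under it.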

Other observations

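Lists not described above held few changes. All 16 cytosolic ribosomal protein genes had a positive difference, with a median of 0.07, and by limma none passed the threshold, with 4 higher at an unadjusted p under 0.05. Of 11 heat shock genes 9 differences were negative with a median of -0.13, and by limma none passed, with 4 lower and 1 higher unadjusted. None of 12 Notch genes passed by limma (3 higher unadjusted), nor did any of 9 glucocorticoid targets (0 unadjusted). Of 12 stress keratins and alarmins, Krt16 was the single call, beside 2.99% lower among all genes. By the 3' minus 5' difference of the control probe sets, Gapdh lay between -0.37 and -0.33 at ZT0 and between -0.35 and -0.32 at ZT20, and Actb between -0.68 and -0.56 and between -0.60 and -0.52 at the same times.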
